A study of Mus musculus with 8 samples.

Results

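Fatty acid synthesis, desaturation, activation, storage and oxidation genes were followed in KPCY, a murine pancreatic cancer line whose labelled sex is male. The 40 genes were taken by symbol from a table of 24421 rows, and a row was found for each of them. RNA came from a stable line transduced with a lentiviral vector that inhibits miR-27a-3p (the knockdown, miR-27a KD, 4 libraries) and from a stable line transduced with a scrambled sequence (Scr, 4 libraries). Lines of both groups had been selected with puromycin at 2 µg/mL for 7 days, were grown in high-glucose medium with fetal bovine serum, and were harvested 24 hours after seeding. It addresses the tumour cell side of miR-27a, in a series on fibroadipogenic progenitors and pancreatic cancer cachexia. Replicates are labelled as biological, yet each group is 1 transduced line, so p-values measure the spread among its replicates and not among independent transductions.

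Cells build fatty acids in the cytosol from acetyl-CoA, which ATP citrate lyase and acetyl-CoA synthetase supply. Acetyl-CoA carboxylase and fatty acid synthase turn it into palmitate, and elongases and desaturases then set chain length and double bonds. Acyl-CoA synthetases activate fatty acids so that they can be esterified into triglyceride and stored in lipid droplets, or carried by carnitine into mitochondria for beta-oxidation. SREBP-1, the product of Srebf1, is the main transcription factor of the synthetic arm. PPAR-alpha and the PGC-1 coactivators drive the oxidative arm.

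The libraries held 19165513 to 21735023 counts in the knockdown and 20021056 to 23542275 in the scrambled group. Levels are CPM, a gene's share of its library's counts scaled by TMM, a normalization for library composition, given as mean ± SD over n = 4 libraries. Each fold change sets the knockdown over the scrambled line. Its test is edgeR's quasi-likelihood one, adjusted by Benjamini and Hochberg's method over all 11797 tested genes, and "called" means an adjusted p under 0.05. Of all tested genes 47.9% were called, 23.8% higher and 24.1% lower in the knockdown. Scrambled replicate 2 stood apart from its group, since pairs that include it differed by chi-square values of 5.19 to 5.36 per gene, where pairs of the other scrambled libraries gave 1.80 to 2.35. The 8 epithelial markers summed to 11520 to 11850 CPM in knockdown and 10830 to 11790 CPM in scrambled libraries. Most of that sum was the keratins Krt8, Krt18, Krt19 and Krt7. Epcam was low, at 4.71 to 7.27 CPM in knockdown and 5.40 to 9.67 CPM in scrambled libraries. Krt18, Krt7, Cdh1 and Muc1 were called higher and Krt19 and Sox9 lower, while Krt8 and Epcam were not called. Of 6 adipocyte markers Lep, Retn, Cfd and Plin1 had 0 counts in every library. The sum of the 6 was 6.57 to 8.44 CPM in knockdown and 9.46 to 11.9 CPM in scrambled libraries, nearly all of it Cidec.

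Of the 40 genes, 37 passed the filter on low counts. Among these 17 fell, 7 rose and 13 did neither, with a median log2 fold change of −0.03 against 0.002 over all tested genes. Most falls lay in synthesis, desaturation and activation. In synthesis 5 of 6 tested genes fell and 0 rose. In desaturation and elongation 5 of 7 fell and 0 rose. In activation and uptake 3 of 5 fell and 1 rose, in storage 2 of 8 fell and 2 rose, and in oxidation 2 of 11 fell and 4 rose. Against the 24.1% lower and 23.8% higher among all tested genes, storage stood near the background in both directions. The changes were small, with a median absolute log2 fold change of 0.23 among called genes, both for the called members and for all called genes. When the test asked for more than a 1.2-fold change, 5 of the 37 were lower and 1 higher, against 4.43% and 4.95% of all tested genes. These were Fasn, Acly, Acss2, Acsl4 and Lpin1, and on the higher side Fabp5. The 4 knockdown libraries lay wholly below the 4 scrambled ones for 17 members and wholly above for 8, against 21.1% and 21.0% of all tested genes.

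**Figure D1:**
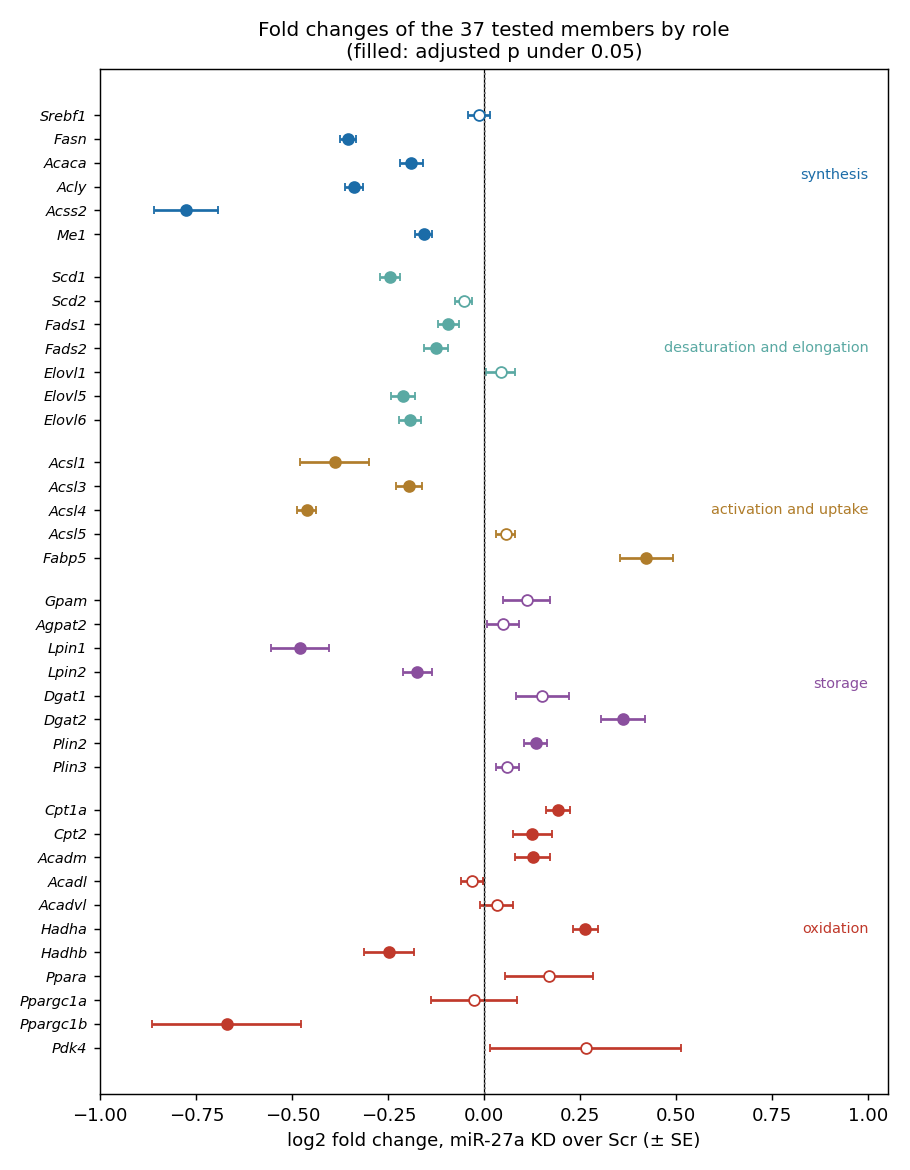
Log2 fold change (miR-27a KD over Scr, x axis) with its SE for the 37 tested members, grouped by role from top to bottom; filled points passed an adjusted p under 0.05, and the dotted line is the median of all tested genes. The 10 called genes of synthesis, desaturation and elongation all lie left of 0, while the called genes of storage and oxidation lie on both sides.

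The inhibited microRNA pairs through its seed, bases 2 to 8, and its mature sequence is shown with that of its relative miR-27b-3p, the seed in capitals (RefSeq, GRCm38.p6). The libraries hold poly(A)-selected RNA and do not measure either microRNA. miR-27a-3p lies at chr8:84208727-84208747 and miR-27b-3p at chr13:63300760-63300780, both on the plus strand, and they share the seed.
mmu-miR-27a-3p: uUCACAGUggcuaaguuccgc
mmu-miR-27b-3p: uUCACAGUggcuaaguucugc

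The longest annotated 3′ UTR of each member was searched for matches to that seed. The 8mer ACTGTGAA was found in Hadha alone, 1 of 40 members, where 6.38% of 11371 tested genes with a UTR hold it. The 8mer or the 7mer ACTGTGA was found in 10 members (25.0%), against 17.7% of tested genes. Of these 10 members 2 rose (Hadha and Acadm), 4 fell (Fasn, Fads1, Elovl6 and Acsl1) and 4 did neither (Scd2, Acsl5, Gpam and Plin3). A further 7mer, CTGTGAA not preceded by A, was found 3 times in Lpin1. It was found 1 time each in Fasn, Acly, Acss2, Scd2, Fads1, Acsl4, Lpin2, Plin2 and Ppargc1a. Of the members with CTGTGAA, Plin2 rose, Scd2 and Ppargc1a did neither and the rest fell. Its share over all tested genes was not computed. Matches in 5 members follow with their flanking bases from GENCODE transcripts on GRCm38, the match in capitals. They are Hadha at chr5:30119624-30119653 (minus strand), 173 bases after the stop codon, the 3 matches in Gpam at chr19:55070606-55070634, chr19:55069144-55069172 and chr19:55068807-55068835 (minus strand), Fasn at chr11:120806710-120806738 (minus strand), Acsl1 at chr8:46535299-46535327 (plus strand) and Acadm at chr3:153922539-153922567 (minus strand). Base matches are a description of the letters and not of binding.
Hadha: ggtgaagtctgACTGTGAAttaactgtttg
Gpam, nearest the stop codon: tcaggctagttACTGTGAtggacattgag
Gpam, middle: acaattaactcACTGTGAggataggcacg
Gpam, farthest: ttcaggggaagACTGTGAgtcaagtttaa
Fasn: agtatgtgaccACTGTGAgaagcatgtcc
Acsl1: ggccatgctcaACTGTGAcatctccaccg
Acadm: ggacacgtcagACTGTGAcatagcagcat

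The enzymes of fatty acid synthesis were lower in the knockdown line, from the supply of acetyl-CoA to palmitate. Fasn, fatty acid synthase (chromosome 11, 120805846 to 120824547), had 792, 793, 792 and 764 CPM in knockdown replicates 1 to 4, against 1019, 995, 997 and 1008 CPM in scrambled replicates 1 to 4. Every knockdown library was well below every scrambled one, and the fall was 1.28-fold (log2 fold change −0.36, SE 0.0206, adjusted p = 2.88e-12). Acly, ATP citrate lyase, had 505, 514, 514 and 504 CPM in the knockdown, against 629.7, 665, 633 and 649 CPM in the scrambled libraries. The groups did not overlap, and Acly fell by 0.34 on the log2 scale, almost as much as Fasn (SE 0.0225, adjusted p = 3.03e-11).

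Acss2, which makes acetyl-CoA from acetate, had the largest fold among the 37 tested members. It had 11.97, 11.3, 12.05 and 9.21 CPM in the knockdown, against 17.5, 20.7, 18.4 and 19.5 CPM in the scrambled libraries. The highest knockdown library was below the lowest scrambled one, a 1.71-fold fall (log2 fold change −0.78, SE 0.083, adjusted p = 7.45e-08). Its exons share bases with those of Gss and Ggt7 on the opposite strand, so the exact fold is uncertain. Acaca, acetyl-CoA carboxylase 1, fell 1.14-fold (121.5 ± 3.28 against 138.6 ± 3.75 CPM), and Me1, the cytosolic malic enzyme that supplies NADPH, fell 1.115-fold (291 ± 3.35 against 324.5 ± 3.36 CPM). Both had groups that did not overlap. Fasn, Acly and Acaca lie on chromosome 11, where the median log2 fold change of the 970 tested genes was −0.06. Me1 lies on chromosome 9, where the median of the 674 tested genes was −0.09. The log2 fold change of Me1 was −0.16, and −0.07 after that median was subtracted.

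Srebf1, the transcription factor of this arm, had 214, 209.4, 212 and 209.8 CPM in the knockdown, against 212, 225.7, 210.6 and 204.7 CPM in the scrambled libraries. The knockdown values lay inside the scrambled range. The log2 fold change was −0.01 (SE 0.0284, adjusted p = 0.734), and its sign turned with scaling by upper quartile (0.01) or by library totals (0.01) and without scrambled replicate 2 (0.02). The counts do not separate the SREBP-1a and SREBP-1c transcripts. Acacb, the carboxylase tied to mitochondria whose malonyl-CoA restrains carnitine transfer, had 1 to 3 counts per knockdown library and 1 to 9 per scrambled library and was not tested. A count of 0 at these depths allows up to 3 counts, 0.129 to 0.155 CPM, for counting error only.

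**Figure D2:**
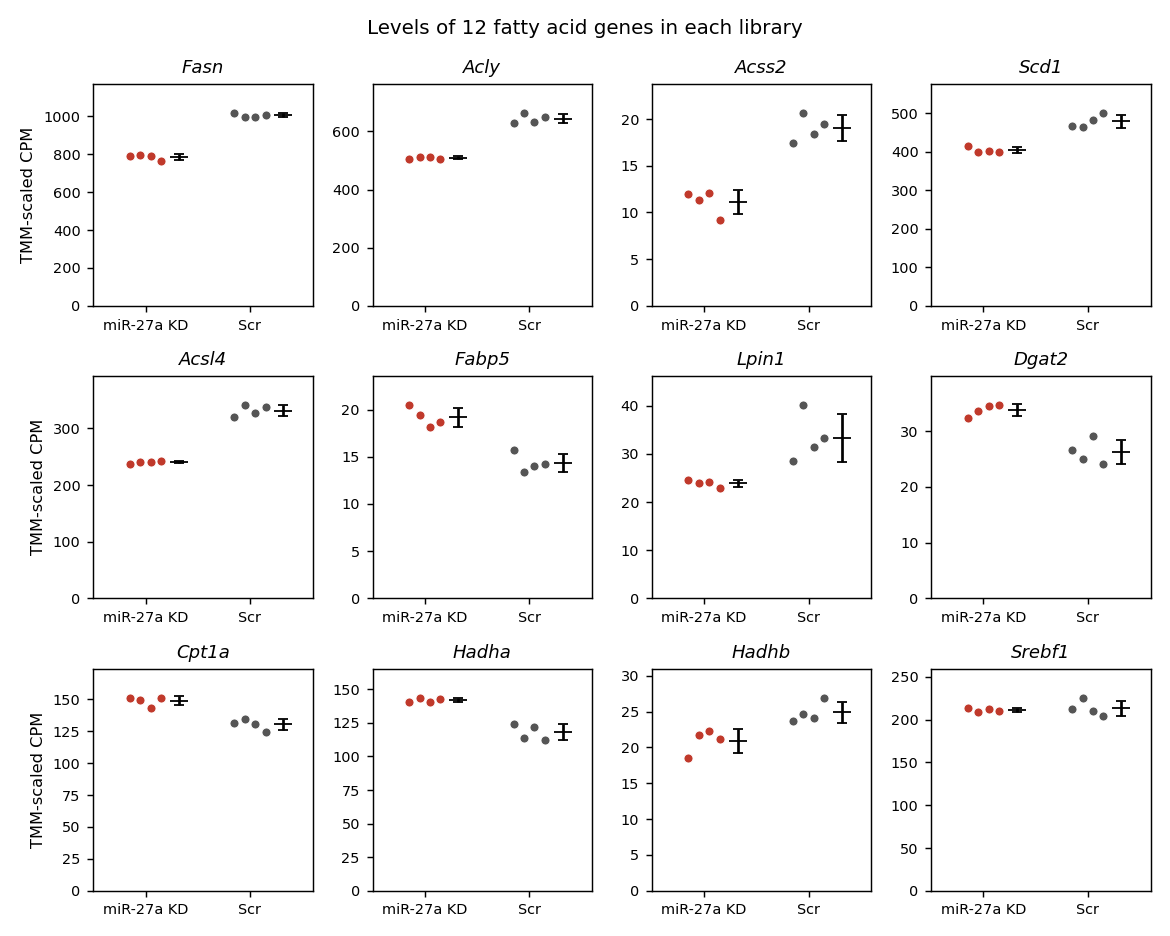
TMM-scaled CPM (y axis from 0) of 12 members in each library, miR-27a KD left of Scr; points are libraries, and the bar with whiskers is the mean ± SD of 4. Fasn, Acly, Acss2, Scd1, Acsl4, Lpin1 and Hadhb sit lower in the knockdown, Fabp5, Dgat2, Cpt1a and Hadha higher, and Srebf1 overlaps.

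A promoter window of 250 bases before to 50 after each RefSeq start was available for 32 of the 40 genes and was searched on both strands. No window was available for Scd1, Scd2, Fads1, Fabp4, Fabp5, Dgat1, Dgat2 and Ppargc1b. The sterol regulatory element TCACNCCAC, a motif of SREBP, was found in the Acsl1 window alone, and in 1.44% of all 27025 genes. Only exact matches to these letters were counted, so a window without a match can still hold a variant of the element. The motif CCAAT, bound by NF-Y, was found in 18 of the 32 members and in 41.1% of all genes. Both shares of all genes cover every gene with a window, whether tested here or not. Some windows with CCAAT, such as those of Lpin2 and Me1, belong to starts inside the gene. The window of Fasn (chr11:120824498-120824797, minus strand) is shown with CCAAT on either strand in capitals, including a pair of matches that share 2 bases, because Fasn is the terminal enzyme of the arm that fell. The window of Acsl1 (chr8:46490716-46491015, plus strand) is shown with its sterol element, on the opposite strand, in capitals. It belongs to a start inside the gene, whose annotated span begins at 46471037, and use of that start was not tested. Both are from RefSeq, GRCm38.p6.
Fasn: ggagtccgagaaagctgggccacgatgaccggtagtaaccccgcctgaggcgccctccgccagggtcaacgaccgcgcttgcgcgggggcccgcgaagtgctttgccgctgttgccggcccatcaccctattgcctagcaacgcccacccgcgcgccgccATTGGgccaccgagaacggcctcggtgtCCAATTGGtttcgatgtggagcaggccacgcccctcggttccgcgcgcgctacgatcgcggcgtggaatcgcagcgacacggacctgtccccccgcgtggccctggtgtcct
Acsl1: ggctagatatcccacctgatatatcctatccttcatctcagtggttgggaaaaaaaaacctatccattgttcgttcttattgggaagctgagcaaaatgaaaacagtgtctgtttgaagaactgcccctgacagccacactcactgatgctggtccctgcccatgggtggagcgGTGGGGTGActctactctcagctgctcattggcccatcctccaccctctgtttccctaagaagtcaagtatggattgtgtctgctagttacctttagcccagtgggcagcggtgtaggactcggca

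Of the desaturases and elongases 5 of 7 fell, each by less than Fasn, while Scd2 and Elovl1 were not called. Scd1, a stearoyl-CoA desaturase that makes oleate from stearate, had 415, 399.7, 402 and 398.5 CPM in the knockdown, against 467, 465, 482 and 501 CPM in the scrambled libraries. The groups were apart, with a 1.185-fold fall (log2 fold change −0.25, SE 0.0255, adjusted p = 4.89e-08). Scd2, the more abundant stearoyl-CoA desaturase of these cells, had 2351, 2289, 2249 and 2292 CPM in the knockdown, against 2279, 2479, 2360 and 2411 CPM in the scrambled libraries. These ranges overlap at scrambled replicate 1, and Scd2 was not called (log2 fold change −0.05, adjusted p = 0.0552). It was called lower without scrambled replicate 1 (adjusted p = 0.00839) or knockdown replicate 1 (adjusted p = 0.041), without the filter (0.0342) and with limma-voom (0.0339). Scd2 counts were 5.68 ± 0.0712 times those of Scd1 in knockdown libraries and 4.98 ± 0.238 times in scrambled ones (mean of the ratios ± SD, n = 4).

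The remaining genes of this group were Fads1, Fads2, Elovl1, Elovl5 and Elovl6. Fads1 and Fads2, which put double bonds into polyunsaturated fatty acids, fell 1.07-fold and 1.09-fold (155.5 ± 2.99 against 165.9 ± 3.27 CPM for Fads1, adjusted p = 0.00648, and 137.8 ± 5.82 against 150.3 ± 2.33 CPM for Fads2, adjusted p = 0.00174). Elovl5, an elongase of polyunsaturated fatty acids, fell 1.16-fold (189.4 ± 3.48 against 219 ± 11.5 CPM). Elovl6, which lengthens palmitate to stearate, fell 1.14-fold (165 ± 1.99 against 188.6 ± 6.60 CPM). Elovl1, an elongase of very long saturated chains, had 67.0 ± 1.13 against 65.1 ± 2.42 CPM (adjusted p = 0.365). All 5 called genes of this group had knockdown libraries wholly below the scrambled ones. Scd1, Fads1 and Fads2 lie on chromosome 19, where the median log2 fold change of the 413 tested genes was 0.11. Elovl5 lies on chromosome 9, with its median of −0.09, and Elovl6 on chromosome 3, with a median of 0.03.

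Acsl1, Acsl3 and Acsl4 of the acyl-CoA synthetases fell and the fatty acid carrier Fabp5 rose. Acsl4, which activates arachidonate and other polyunsaturated fatty acids, had 238, 240.2, 241 and 242 CPM in the knockdown, against 320.3, 341, 327 and 337 CPM in the scrambled libraries. The gap between the groups was many times the spread within the knockdown, a 1.38-fold fall (log2 fold change −0.46, SE 0.025, adjusted p = 8.7e-13, the smallest among the members). Acsl1, a synthetase of liver, muscle and fat, had 9.06, 8.75, 9.55 and 7.75 CPM in the knockdown, against 10.8, 11.9, 12.7 and 10.4 CPM in the scrambled libraries. Its groups did not overlap either, although each varied more, and it fell 1.31-fold (log2 fold change −0.39, SE 0.0907, adjusted p = 0.00114). Acsl1 lies on chromosome 8, where the median log2 fold change of the 648 tested genes was 0.21. Acsl3, a synthetase of the endoplasmic reticulum and lipid droplets, fell 1.145-fold (138 ± 2.37 against 158 ± 8.93 CPM).

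Acsl5, the most abundant synthetase, had 502, 502, 486 and 507 CPM in the knockdown, against 491, 462, 488.5 and 479 CPM in the scrambled libraries. The ranges overlap and Acsl5 was not called (log2 fold change 0.06, adjusted p = 0.0601). It was called higher without scrambled replicate 1 (adjusted p = 0.0378) or knockdown replicate 3 (adjusted p = 0.0397). With library totals alone as the scale the adjusted p was 0.00718, with upper-quartile factors 0.0141 and with limma-voom 0.0479.

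Fabp5, a carrier that delivers fatty acids inside the cell, had 20.5, 19.5, 18.2 and 18.7 CPM in the knockdown, against 15.7, 13.4, 14.0 and 14.2 CPM in the scrambled libraries. All knockdown libraries were higher, a 1.34-fold rise (log2 fold change 0.42, SE 0.0689, adjusted p = 2.65e-05). The annotation lists a processed pseudogene of Fabp5, so its counts are uncertain. Fabp4, the carrier of fat cells and macrophages, had 0 counts in all 8 libraries. Cd36, a fatty acid receptor and importer of the cell surface, had 0 to 2 counts per knockdown library and 3 to 6 per scrambled library and was not tested. Cd36 lies at 17781690 to 17888801 on chromosome 5, between Cdk6 and Gnai1, where all 37 tested genes fell with a median log2 fold change of −2.51. Those bounds were set with earlier results of these data known, so the count describes the region and is not a test.

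**Figure D3:**
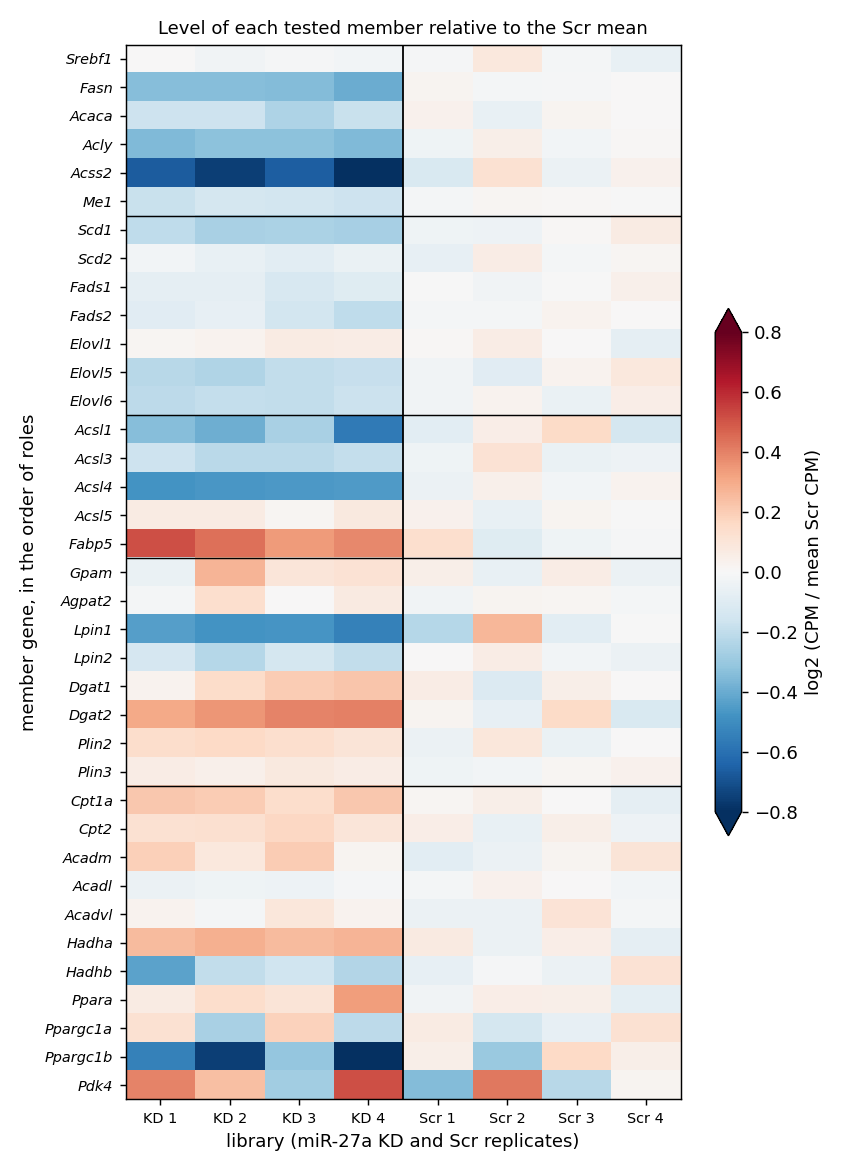
Log2 of each library's CPM over the mean of the 4 scrambled libraries for the 37 tested members (rows, in the order of roles) in 8 libraries (columns, miR-27a KD left of Scr); the colour scale is clipped at its ends. Rows of synthesis are blue across the 4 knockdown columns except Srebf1, and Lpin1 is red in scrambled replicate 2.

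Triglyceride synthesis and lipid droplet genes moved in both directions, with Lpin1 and Lpin2 lower and Dgat2 and Plin2 higher. Lpin1, a phosphatidate phosphatase that makes diacylglycerol, had 24.6, 24.0, 24.1 and 22.9 CPM in the knockdown, against 28.4, 40.1, 31.5 and 33.3 CPM in the scrambled libraries. Scrambled replicate 2 was the highest and the groups did not overlap, a 1.39-fold fall (log2 fold change −0.48, SE 0.0756, adjusted p = 1.74e-05). Without that library the fall was smaller and still called, as the range over the 8 fits that leave out 1 library each was −0.55 to −0.38. Lpin2, a related phosphatase, fell 1.13-fold (59.0 ± 1.81 against 66.6 ± 2.15 CPM, adjusted p = 0.000677). Lpin3, the remaining lipin, was on the storage list of further genes and was not called (5.42 against 4.70 CPM on average, log2 fold change 0.21, adjusted p = 0.177).

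Dgat2, which adds the last acyl chain to triglyceride, had 32.3, 33.5, 34.5 and 34.7 CPM in the knockdown, against 26.6, 25.1, 29.1 and 24.1 CPM in the scrambled libraries. Its lowest knockdown library was above the highest scrambled one, a 1.285-fold rise (log2 fold change 0.36, SE 0.0575, adjusted p = 1.89e-05). Dgat1, the other acyltransferase of that step, had 15.7, 17.0, 17.7 and 17.9 CPM in the knockdown, against 16.0, 14.2, 15.9 and 15.4 CPM in the scrambled libraries. Knockdown replicate 1 fell inside the scrambled range, and Dgat1 was not called (log2 fold change 0.15, adjusted p = 0.0733). Without that library the adjusted p was 0.0384, with library totals as the scale 0.0366 and with upper-quartile factors 0.0436. Plin2, the lipid droplet coat protein of most cells, rose 1.10-fold with no overlap (186 ± 3.12 against 170 ± 7.89 CPM, adjusted p = 0.000968).

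Gpam, the mitochondrial acyltransferase that starts glycerolipid synthesis and carries 3 of the 7mers shown above, had 26.0, 32.6, 28.9 and 29.3 CPM in the knockdown, against 28.0, 25.9, 28.2 and 26.1 CPM in the scrambled libraries. Knockdown replicate 1 was as low as the scrambled libraries, and Gpam was not called (log2 fold change 0.11, SE 0.0614, adjusted p = 0.146). Without that library the adjusted p was 0.0388. Agpat2, which acylates lysophosphatidate, had 49.1 ± 2.37 against 47.5 ± 0.772 CPM (adjusted p = 0.365). Plin3, another droplet coat protein, had 109.5 ± 1.18 against 105 ± 2.22 CPM, with groups apart but an adjusted p of 0.0974, which was 0.0197 with library totals as the scale and 0.0316 with upper-quartile factors.

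The oxidation group had 4 rises and 2 falls among 11. It holds enzymes of carnitine transfer and mitochondrial beta-oxidation, the regulators Ppara, Ppargc1a and Ppargc1b, and the kinase Pdk4. The falls were those of the enzyme Hadhb and the regulator Ppargc1b. Among the enzymes the largest absolute log2 fold change was 0.26, that of Hadha. The rises of Cpt2 and Acadm were both lost at an adjusted p under 0.01 and without knockdown replicate 1 or 3, which left 2 rises and 2 falls. Cpt1a, the carnitine palmitoyltransferase that controls entry of fatty acids into mitochondria, rose 1.14-fold with groups apart (148.8 ± 3.69 against 130.3 ± 4.47 CPM, a log2 change of 0.19 with SE 0.0305 and adjusted p = 1.87e-05). It lies on chromosome 19, with its median of 0.11. Cpt2, its partner of the inner membrane, had 31.1, 31.3, 32.2 and 30.6 CPM in the knockdown, against 29.7, 27.5, 29.5 and 27.8 CPM in the scrambled libraries. The groups did not overlap, but the rise (log2 fold change 0.13, adjusted p = 0.0425) was not called by DESeq2 (adjusted p = 0.10) or without the filter (0.0714). The adjusted p was 0.0898 and 0.103 without scrambled replicates 2 and 4, and 0.0674, 0.0731, 0.108 and 0.0515 without knockdown replicates 1 to 4 in turn.

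Acadm, the medium-chain acyl-CoA dehydrogenase, had 81.6, 75.6, 82.3 and 72.5 CPM in the knockdown, against 67.4, 69.0, 72.6 and 76.5 CPM in the scrambled libraries. These ranges overlap, and the rise (log2 fold change 0.13, adjusted p = 0.0245) was lost without scrambled replicate 1 (adjusted p = 0.0892), knockdown replicate 1 (0.0948) or knockdown replicate 3 (0.105). Acadl and Acadvl, the long-chain and very long-chain dehydrogenases, were not called (122 ± 1.37 against 125 ± 2.196 CPM, and 54.2 ± 1.61 against 52.9 ± 2.80 CPM). Acadvl shares 1151 exon bases with Dvl2 on the opposite strand.

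Hadha and Hadhb, the alpha and beta subunits of the mitochondrial trifunctional protein that carries out the last steps of long-chain oxidation, went in opposite directions. They are neighbours on chromosome 5 (30118304 to 30155162 and 30155248 to 30184593). Hadha had 140.7, 143.8, 140.5 and 142.5 CPM in the knockdown, against 123.9, 114.1, 122.3 and 112.3 CPM in the scrambled libraries. Hadhb had 18.5, 21.7, 22.3 and 21.1 CPM in the knockdown, against 23.7, 24.7, 24.1 and 26.9 CPM in the scrambled libraries. Neither gene's groups overlapped, with Hadha up by 0.26 (SE 0.0325, adjusted p = 6.14e-07) and Hadhb at −0.25 (SE 0.0648, adjusted p = 0.00301) on the log2 scale. Both calls held in each of the 8 fits that leave out 1 library. The ratio of Hadha to Hadhb counts averaged 6.82 ± 0.563 over knockdown libraries and 4.77 ± 0.478 over scrambled ones. Hadha is also the member whose 3′ UTR holds the miR-27 8mer, with a 7mer farther on, and none of the searched matches was found in that of Hadhb. The median log2 fold change of the 760 tested genes of chromosome 5 was 0.14.

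The regulators of oxidation among the members were low. Ppara, the fatty acid-sensing nuclear receptor, had 4.86, 5.12, 5.003 and 5.88 CPM in the knockdown, against 4.56, 4.83, 4.80 and 4.42 CPM in the scrambled libraries. The groups were just apart, with a log2 fold change of 0.17 that was not called (SE 0.114, adjusted p = 0.238). Ppargc1a, the coactivator PGC-1alpha, had 7.62, 5.85, 7.96 and 6.06 CPM in the knockdown, against 7.33, 6.34, 6.68 and 7.62 CPM in the scrambled libraries. The groups overlapped throughout (log2 fold change −0.03, adjusted p = 0.864). Ppargc1b, the coactivator PGC-1beta, had 1.74, 1.501, 2.04 and 1.14 CPM in the knockdown, against 2.62, 2.06, 2.83 and 2.62 CPM in the scrambled libraries. It fell 1.59-fold on 25 to 40 counts per knockdown and 41 to 66 per scrambled library (log2 fold change −0.67, SE 0.193, adjusted p = 0.00644), with knockdown replicate 3 close below scrambled replicate 2. Pdk4, a kinase that shuts off pyruvate dehydrogenase when fat is burned, had 1.25 ± 0.276 against 1.051 ± 0.26 CPM (adjusted p = 0.402).

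Levels of different genes were compared as mean CPM per kilobase of transcript. Scd2 was the most abundant member, at 421 CPM per kilobase in knockdown and 437 in scrambled libraries. Acly stood at 115.9 against 146.6, Acsl5 at 117.6 against 113.2 and Plin2 at 98.7 against 90.02 CPM per kilobase. Acsl5 lay below Acly in the scrambled libraries and the ranges of both overlapped in the knockdown. In oxidation Acadl was highest, at 63.8 against 65.2, and Hadha stood at 35.3 against 29.4 where its partner Hadhb stood at 10.2 against 12.1 CPM per kilobase. The acetate-using Acss2 had 3.80 against 6.49 CPM per kilobase, far below Acly.

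**Figure D4:**
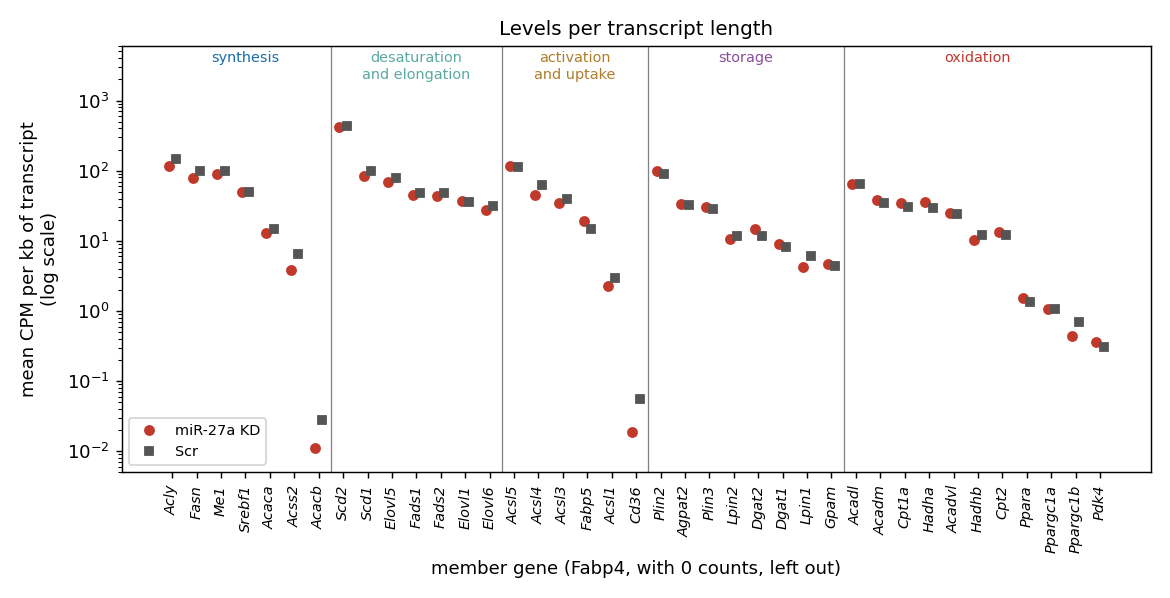
Mean CPM per kilobase of transcript (log y axis) for 39 members, ordered by role and then by level; red circles are miR-27a KD and grey squares Scr. Scd2 stands highest at 421 and 437 CPM per kilobase, and Acacb, Cd36, Pdk4 and the regulators of oxidation stand lowest.

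Further genes of the same pathways were counted from 5 lists of 103 genes in all, of which 82 were tested, with 20 rises and 17 falls. These counts are near the shares of all tested genes, 23.8% higher and 24.1% lower. In synthesis 5 of 15 fell and 2 rose. Insig1, which holds SREBP in the endoplasmic reticulum, fell 1.28-fold (156 ± 6.06 against 199.9 ± 19.3 CPM), and Mid1ip1, an activator of acetyl-CoA carboxylase, fell 1.195-fold. The others that fell were Slc25a1, the mitochondrial citrate exporter, Scap, the SREBP escort, and Mbtps2, a protease that releases SREBP. Mbtps2 shares 2867 of its 10105 exon bases with Yy2 on the same strand, so its fold is uncertain. Mbtps1, the other SREBP protease, rose 1.19-fold and Cbr4, of mitochondrial fatty acid synthesis, rose 1.35-fold. Both lie on chromosome 8, whose median log2 fold change is given above, and Mbtps1 exceeded that median by 0.05.

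In desaturation and elongation 2 of 10 listed genes rose and 2 fell. Tecr, which completes each elongation cycle and lies on chromosome 8, rose 1.29-fold (192 ± 5.39 against 149 ± 2.08 CPM) and Degs1, a ceramide desaturase, 1.21-fold. Hacd1, a dehydratase of the cycle, stood at a log2 fold change of −0.20 (adjusted p = 0.0131), lost without scrambled replicate 1 (0.0692) or knockdown replicate 1 (0.0573). Fads3, a relative of Fads1, stood at −0.08 (adjusted p = 0.0326), and its call was lost with DESeq2 (0.0614), without the filter (0.0504), under both other scalings (0.106 and 0.155), and without scrambled replicates 1 (0.0838) or 4 (0.0807) or knockdown replicates 2 (0.0765) or 4 (0.0952).

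In activation and uptake 6 of 14 rose and 2 fell, against 23.8% higher and 24.1% lower among all tested genes. Of those rises, Acot1 (0.741 against 0.339 CPM on average), Acsl6 (1.415 against 0.834 CPM) and Slc27a3 (2.43 against 1.68 CPM) were at low levels. Acsf3, a mitochondrial malonyl-CoA synthetase on chromosome 8, rose 1.44-fold (16.5 ± 1.2 against 11.4 ± 0.316 CPM) and Acsf2, another mitochondrial acyl-CoA synthetase, fell 1.41-fold (18.5 ± 0.869 against 26.1 ± 0.534 CPM). Slc27a6, a fatty acid transport protein, and Acot7, an acyl-CoA thioesterase, stood at log2 fold changes of 0.14 and −0.07. Slc27a6 was called at an adjusted p of 0.0438, which became 0.0882 and 0.158 without scrambled replicates 1 and 2, and 0.0935, 0.069, 0.0513 and 0.119 without knockdown replicates 1 to 4 in turn, and DESeq2 gave 0.0687. Without scrambled replicate 2 its log2 fold change was 0.07. Acot7 was called at 0.0267, which became 0.0531 and 0.0617 without scrambled replicates 1 and 4, and 0.0558 and 0.0855 without knockdown replicates 2 and 4, and with upper-quartile factors and library totals it was 0.096 and 0.143.

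In storage 6 of 16 listed genes rose and 1 fell, against 23.8% higher and 24.1% lower among all tested genes. Of those rises, Cideb was at a low level (0.77 against 0.173 CPM on average). Soat1, which esterifies cholesterol for droplets, rose 1.48-fold (87.6 ± 2.02 against 59.2 ± 4.37 CPM). Agpat5 rose 1.13-fold, a log2 fold change of 0.18, which was below the median of its chromosome 8 (0.21). Cidec, a droplet fusion protein, fell 1.44-fold (7.69 ± 0.807 against 11.1 ± 1.13 CPM). In oxidation 4 of 27 rose and 7 fell. Acads, the short-chain dehydrogenase, rose 1.2-fold and Acad10 1.3-fold. Both lie on chromosome 5, with its median log2 fold change of 0.14. Acaa2, the mitochondrial thiolase, fell 1.21-fold (46.9 ± 1.70 against 56.6 ± 1.01 CPM) and Pdk3 1.28-fold. The electron transfer flavoprotein subunits Etfa and Etfb, which take electrons from the acyl-CoA dehydrogenases, fell by 0.15 and 0.20 on the log2 scale. They lie on chromosomes 9 and 7, with medians of −0.09 and −0.06. Etfb shares 617 of its 1164 exon bases with Gm45233 on the same strand, so its fold is uncertain. Etfdh, of the same list, was not called (log2 fold change 0.06, adjusted p = 0.221). That list also holds 2 regulators at higher levels than those among the members. Ppard was called higher (86.3 ± 2.73 against 75.1 ± 1.91 CPM, log2 fold change 0.20, adjusted p = 5.57e-05). Esrra was not called (41.8 ± 1.29 against 39.9 ± 1.46 CPM, adjusted p = 0.226).

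**Figure D5:**
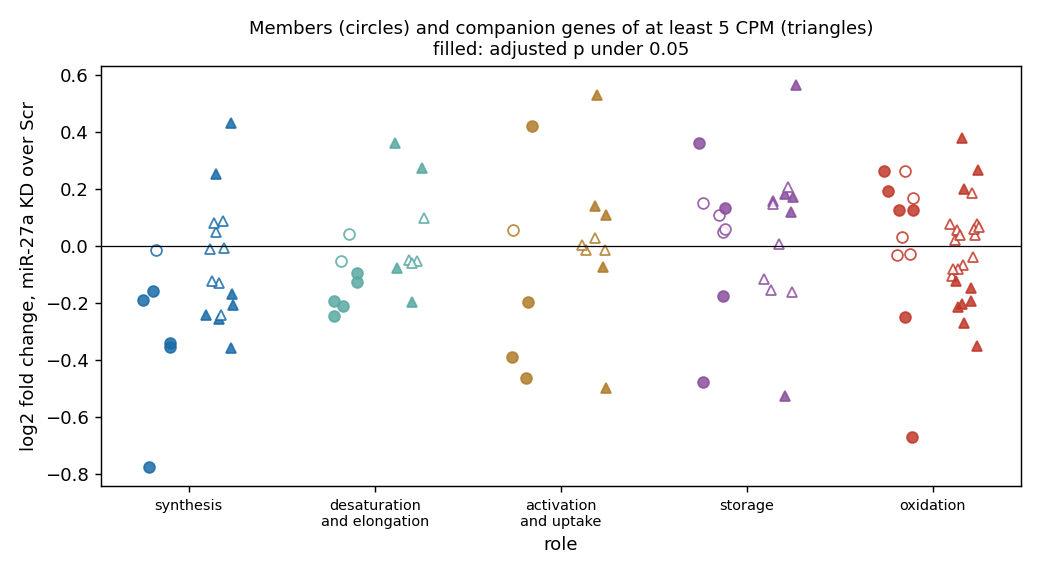
Log2 fold change (miR-27a KD over Scr, y axis) of tested members (circles) and of listed companion genes averaging 5 CPM or more (triangles) by role; filled symbols passed an adjusted p under 0.05. Called members of synthesis and of desaturation lie below 0, while companions of every role lie on both sides.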

How the data were processed

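The authors deposited raw read counts per gene symbol, per the file headers. The libraries were made with a stranded mRNA kit, per the labels' protocols. The submitters' processing notes name build mm10 and the tools STAR, Bowtie, bcl2fastq 2.20, R 4.2.1 and DESeq2 1.36.0. How reads were assigned to genes, and whether by strand, is not given in the sources used here, so reads of overlapping genes on opposite strands cannot be told apart. The fit used edgeR 4.0.16 under R 4.3.3 (genes kept by filterByExpr, minimum count 10 and total 15, TMM, glmQLFit and glmQLFTest on group), and SE is the log2 fold change over the root of F. DESeq2 1.42.0 and limma 3.58.1 (voom) were alternatives, with other scalings and filters, a replicate block, stricter thresholds and leaving out each library. The fit was tested on simulated data. It recovered 34 of 49 genes changed 1.2-fold and 48 of 50 changed 2-fold, with 10 false calls among 11741 genes. A change of 1.2-fold can therefore be missed. Symbols were matched to GENCODE M21 (GRCm38), 23350 by current and 650 by older symbol, and transcript lengths are those of the highest-ranked APPRIS transcript. Members and lists were chosen with earlier results of these data known. Values per library are given for called members with an absolute log2 fold change of at least 0.26, the 4 regulators and members whose call changes when 1 library is left out, with Scd1 and Hadhb added after their values were seen. Of each further list and direction, up to 2 called genes of at least 5 CPM with the largest change are named. Slc25a1, Scap, Mbtps2, Acot1, Acsl6, Slc27a3, Cideb, Lpin3, Etfa, Etfb, Etfdh, Ppard and Esrra were added after their values were seen.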

Additional observations from a re-analysis of the deposited data

Results flagged for a closer look

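Among 78 sets of 4 library values, a member in a group each, 3 held a library far from the other 3 by Dixon's test at its 95% critical value, and chance flags about 1 in 20. Fasn stood at 764 CPM in knockdown replicate 4, where the other knockdown libraries had 792 to 793. Acaca stood at 117 CPM in knockdown replicate 3, where the others had 122 to 124. Acsl3 stood at 172 CPM in scrambled replicate 2, where the others had 153 to 155. Each of the 3 genes was called lower in all 8 fits that leave out 1 library.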

How the results depend on the processing

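All 24 called members kept their direction under each alternative. With the 1.2-fold test 1107 genes were called (584 higher, 523 lower), 1 member higher and 5 lower (3 of synthesis, 0 of desaturation, 1 of activation, 1 of storage and 0 of oxidation lower, 0 of storage and 0 of oxidation higher), and 4 listed genes higher and 2 lower. Activation had 2 rises, and storage 4, under upper-quartile factors and under library totals, and activation had 2 with limma-voom. Oxidation had 2 rises at an adjusted p under 0.01. Leaving out 1 library gave 1 to 2 rises in activation, 2 to 4 in storage and 2 to 4 in oxidation. Srebf1 turned to 0.0063 (upper quartile), 0.0128 (library totals) and 0.0154 (without scrambled replicate 2), with −0.0314 to 0.0154 on leaving out 1 library. Ppargc1a turned to 0.0162, 0.0402 and 0.0322 without scrambled replicate 4 and knockdown replicates 2 and 4, in a range of −0.1046 to 0.0402. The cause was not tested. The replicate numbers do not pair the samples (correlations of same-numbered libraries −0.035 to 0.02, with 1 of 8 closest to its own number). With the replicate block 5533 genes were called, with 6 members higher and 17 lower, and the calls of Cpt2 (adjusted p = 0.0536) and Fads3 (0.0514) were lost. After the median of its chromosome (−0.108 to 0.207) was subtracted, an alternative chosen after seeing the data, each of the 24 called members kept its sign. Some shrank, as Me1 went from −0.16 to −0.07 and Cpt1a from 0.19 to 0.08. Low counts limit Acacb, Cd36, Fabp4, Ppargc1b and Pdk4.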
